A study of Mus musculus with 12 samples.

Results

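Transcripts of 6 STAT transcription factors (Stat2, Stat3, Stat4, Stat5a, Stat5b and Stat6) and of 3 Janus kinases (Jak1, Jak2 and Tyk2) were followed across 4 mouse cell populations. All probe sets that the array annotation assigns to these 9 symbols were taken, which gave 20 of the 45037 probe sets, and 0 of the 20 named a second gene. All 20 passed the filter on dim probe sets. The brightest one stood for its gene, and the 9 genes were tested among 12609.

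Cytokines bind receptors that have no enzyme activity of their own, and Janus kinases held on the receptor tails then phosphorylate the receptor and the STAT proteins that dock on it. The phosphorylated STATs pair, enter the nucleus and bind the control regions of target genes. In CD4+ T cells, Stat4 is best known for interleukin-12 signalling and type 1 helper cells, Stat6 for interleukin-4 and type 2 helper cells, Stat3 for interleukin-6 and the interleukin-17 lineage, and the Stat5 pair for interleukin-2 and Foxp3+ regulatory cells. Stat2 acts downstream of type I interferon, whose receptor uses Jak1 and Tyk2.

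The study compared 4 populations defined by surface markers, with 3 arrays each, all from the strain C57BL/10.RIII. Encephalitogenic T cells (EncT, marked CD4+) are T cells able to transfer brain inflammation. Regulatory T cells marked CD4+,TGFbeta+ are called Treg. FoxA1+ regulatory T cells, marked CD4hi,PD-L1hi, came in a form called neuron induced in the sample titles and natural in the cell type field (nFoxA1Treg), and in a form induced by IFN-beta (iFoxA1Treg). The labels give no treatment, dose, time, age or number of animals for any of the groups. Whether the 3 arrays of a group stand for different mice or cultures is not stated, so every p-value rests on the spread between arrays, which may be technical.

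The IFN-beta induced group (written below as the arrays labelled iFoxA1Treg) lay at a distance from the other 9 arrays. Its correlation with the arrays of the other groups ran from 0.683 to 0.739, against 0.815 to 0.847 between arrays of different groups among the other 9. Cd4 was at 4.24 (log2, mean of 3 arrays) in the arrays labelled iFoxA1Treg and at 10.57, 10.44 and 10.39 in EncT, nFoxA1Treg and Treg, which goes against the CD4hi label. Cd274, which encodes PD-L1, was at 10.01 there and at 7.63, 7.34 and 7.31 in EncT, nFoxA1Treg and Treg. The summed level of 11 T cell markers, all above the filter level in every group, was 6151 to 6405 in the arrays labelled iFoxA1Treg and 19970 to 22776 in the others. Of 9 B cell markers, all 9 were above the filter level there and 3 in each other group, with sums of 21743 to 23746 against 125 to 221. All 12 macrophage markers were above it there, with sums of 27519 to 27719 against 1222 to 3151. Xist, transcribed from the inactive X chromosome, was at 2.11 there and between 11.07 and 11.52 in the other groups, and Y-linked Eif2s3y was at 9.66 against at most 2.30. Of 8 CD8 and NK markers, all 8 were above the filter level there and 6 in each other group. Their summed level went the other way, at 1424 to 1484 there against 1846 to 5199. One of them, Gzma, was at 8.66 there and at 11.37, 11.84 and 11.99 in EncT, nFoxA1Treg and Treg. In such bulk RNA, fewer cells of a type and less RNA per cell cannot be told apart.

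The Stat2 promoter is shown because Stat2 differed most between the groups, and because its own sequence holds letters of the element that the complex of Stat2 and Irf9 binds. Promoter windows came from RefSeq (GRCm38.p6) and reach from 250 bases before to 50 after a gene's start. All 9 genes matched, with 12 windows. Capitals mark matches to the core of the interferon-stimulated response element (GAAA, any 2 bases, GAAA), to a general STAT site (TTC, any 3 bases, GAA) and to the spacing that Stat6 prefers (TTC, any 4 bases, GAA), searched on both strands. A match on the opposite strand reads as its reverse complement.
Stat2, chr10:128270248-128270547, + strand: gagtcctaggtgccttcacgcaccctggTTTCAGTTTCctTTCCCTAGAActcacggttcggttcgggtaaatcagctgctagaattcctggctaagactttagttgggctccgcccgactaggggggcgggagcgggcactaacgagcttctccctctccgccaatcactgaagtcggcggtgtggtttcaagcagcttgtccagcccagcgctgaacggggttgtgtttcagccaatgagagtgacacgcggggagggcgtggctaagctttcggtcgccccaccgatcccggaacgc

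The Stat2 window held 2 matches, which do not overlap. TTTCAGTTTC, at -222 to -213 from the start, matched the interferon element core on the opposite strand, and TTCCCTAGAA, at -210 to -201, matched the Stat6 spacing. The window of a second Stat4 start also matched the interferon element core. Below are the bases around that match, at -97 to -88, with those of 2 interferon-induced genes measured on the same arrays for comparison.
Stat4, within chr1:52007990-52008289, + strand: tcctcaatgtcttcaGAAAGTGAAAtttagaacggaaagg
Bst2, chr8:71537572-71537611, - strand: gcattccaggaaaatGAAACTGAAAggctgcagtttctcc
Ifit1, chr19:34640770-34640809, + strand: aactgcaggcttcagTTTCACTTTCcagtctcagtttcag

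The interferon element core was present in 2 of the 12 member windows and in 3.44% of 32851 windows in the table. The Stat6 spacing was present in 1 of the 12 and in 6.95% of all windows, and the general STAT site in 0 of the 12 and in 8.3% of all windows. A match is a description of the letters only. Counted by gene, 2 of 9 members had the interferon element core, against 1079 of 27025 genes (3.99%).

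Among the 3 populations with high Cd4, the brightest probe sets of the 9 genes moved little and, where called, were lower than EncT. A Stat3 probe set described below went the other way. In nFoxA1Treg against EncT, 4 of 9 (Stat3, Stat5b, Stat6 and Jak2) were called lower and 0 higher, at an adjusted p under 0.05 in limma with Benjamini-Hochberg adjustment over all genes. Of all genes, 19.6% were called, 11.2% lower and 8.46% higher. In Treg against EncT, 5 of 9 (Stat2, Stat3, Stat5b, Stat6 and Jak2) were lower and 0 higher, where 16.5% of all genes were called, 10.3% lower and 6.23% higher. The median log2 change over the 9 was -0.19 in nFoxA1Treg and -0.23 in Treg, against medians over all genes of -0.0045 and -0.0038. The 2 comparisons share the EncT arrays. An F test among the 3 groups called 5 of the 9 (Stat2, Stat3, Stat5b, Stat6 and Jak2), where 16.8% of all genes were called.

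**Figure D1:**
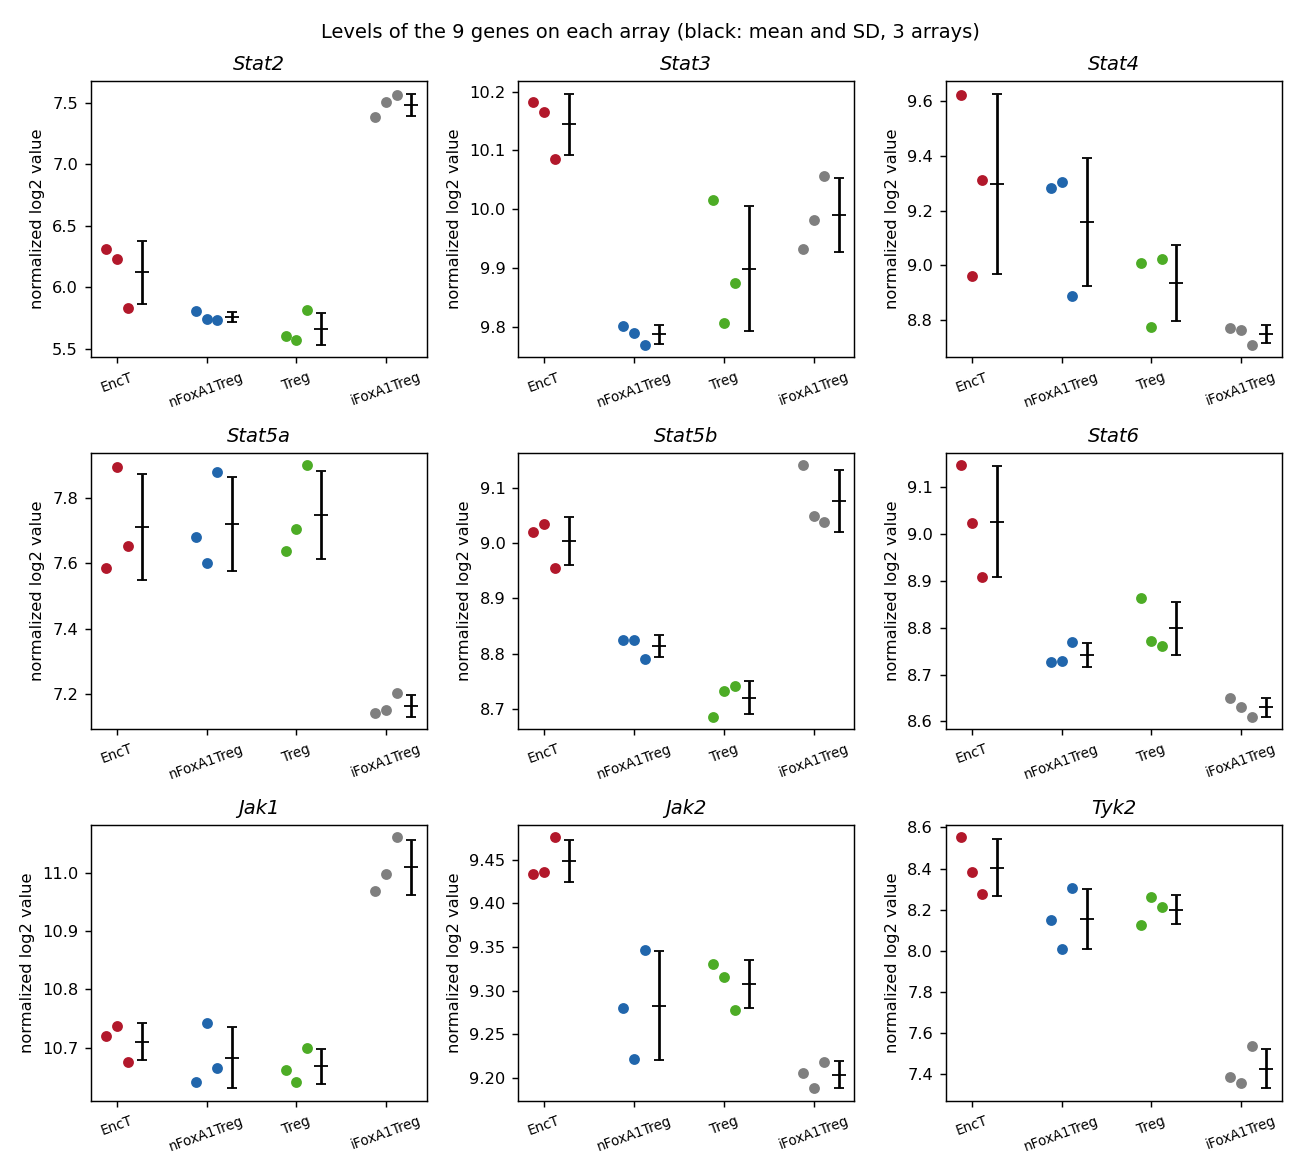
Normalized log2 level of each of the 9 genes (vertical axis) on each of the 12 arrays, by group, with 1 point per array and, in black, the mean and SD of each group of 3. In Stat2, the 3 arrays labelled iFoxA1Treg sit between 7.39 and 7.56, above the other 9, and in Tyk2 they sit between 7.36 and 7.54, below the other 9.

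Stat3, which carries interleukin-6, interleukin-10 and interleukin-23 signals, was lower than EncT in both regulatory populations on its brightest probe set. The log2 levels there were 10.18, 10.17 and 10.09 in EncT, 9.80, 9.79 and 9.77 in nFoxA1Treg, and 10.02, 9.81 and 9.87 in Treg. All 3 EncT arrays were above all 6 of the others, and nFoxA1Treg lay below Treg on every array. The log2 change against EncT was -0.36 ± 0.056 (SE) in nFoxA1Treg, 1.28-fold lower (limma, adjusted p = 0.00116), and -0.25 ± 0.056 in Treg (limma, adjusted p = 0.0113). The call in Treg was lost without Treg replicate 2 (adjusted p = 0.059).

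The other Stat3 probe sets did not all follow. On 1460700_at Stat3 was again lower than EncT, by -0.29 in nFoxA1Treg and -0.24 in Treg (limma over every probe set, adjusted p = 0.00493 and 0.0181). On 1459961_a_at it was higher: 7.68, 7.10 and 7.12 in EncT, 8.31, 8.40 and 8.50 in nFoxA1Treg, and 8.71, 8.34 and 8.52 in Treg. There the 6 regulatory arrays were all above the 3 of EncT, with log2 changes of 1.11 ± 0.15 and 1.22 ± 0.15 (SE; limma over every probe set, adjusted p = 0.00123 and 9.90e-04). A direction for Stat3 therefore holds for a probe set and not for the gene as a whole. The fourth probe set, 1424272_at, was not called in any comparison.

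Stat6, the interleukin-4 and interleukin-13 factor, was also lower than EncT in both on its brightest probe set. Its levels were 9.15, 9.02 and 8.91 in EncT, 8.73, 8.73 and 8.77 in nFoxA1Treg, and 8.86, 8.77 and 8.76 in Treg. The EncT arrays did not overlap with either group. The change was -0.28 ± 0.060 (SE) in nFoxA1Treg (limma, adjusted p = 0.00598) and -0.23 ± 0.060 in Treg (limma, adjusted p = 0.0219). The Treg call was lost without EncT replicate 1 (adjusted p = 0.0653), Treg replicate 2 (0.0837) or Treg replicate 3 (0.0852). On the second Stat6 probe set, 1421708_a_at, the changes of -0.17 and -0.18 were not called (limma over every probe set, adjusted p = 0.297 and 0.269).

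On the brightest probe sets, Stat5b was called and Stat5a was not. Stat5a and Stat5b are close relatives that both answer interleukin-2, and in the RefSeq table (GRCm38.p6) Stat5b, Stat5a and Stat3 are neighbours on chromosome 11 with 0 other genes between them. Stat5b was at 9.02, 9.03 and 8.95 in EncT, 8.82, 8.82 and 8.79 in nFoxA1Treg, and 8.69, 8.73 and 8.74 in Treg, with no overlap among the 3 groups. Stat5b changed by -0.19 ± 0.048 (SE) in nFoxA1Treg and -0.28 ± 0.048 in Treg (limma, adjusted p = 0.0147 and 0.00238), and both calls were kept without any one array. Stat5a was at 7.59, 7.89 and 7.65, then 7.68, 7.60 and 7.88, then 7.64, 7.71 and 7.90 in the same order of groups, and these overlapped throughout. The 95% interval of its change was -0.20 to 0.22 in nFoxA1Treg and -0.17 to 0.25 in Treg, which holds the Stat5b change in nFoxA1Treg but not that in Treg. The difference between the 2 genes was not tested. The second Stat5b probe set, 1422102_a_at, changed by 0.056 and 0.0080 and was not called in either.

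Stat2 was dim but measurable in the T cell groups. It was at 6.31, 6.23 and 5.83 in EncT, 5.81, 5.74 and 5.73 in nFoxA1Treg, and 5.60, 5.57 and 5.81 in Treg. EncT was above both on every array, though EncT replicate 3 lay close to nFoxA1Treg replicate 1. Against EncT, Stat2 was lower in Treg by -0.46 ± 0.12 (SE; limma, adjusted p = 0.0245), and the change of -0.36 ± 0.12 in nFoxA1Treg was not called (limma, adjusted p = 0.0571). Without EncT replicate 3 the second change was -0.51 and was called (adjusted p = 0.00949). The Treg call was lost without EncT replicate 1 (adjusted p = 0.0868), EncT replicate 2 (0.0517), Treg replicate 1 (0.0739) or Treg replicate 2 (0.0927). On the second Stat2 probe set, 1421911_at, the changes were -0.51 in nFoxA1Treg and -0.48 in Treg (limma over every probe set, adjusted p = 0.0408 and 0.0564), so the call there fell on nFoxA1Treg and not on Treg.

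Stat4 varied most within EncT, at 9.62, 8.96 and 9.31. It was at 9.28, 9.31 and 8.89 in nFoxA1Treg and 9.01, 8.78 and 9.02 in Treg, overlapping with EncT in both. Its changes of -0.14 ± 0.14 and -0.36 ± 0.14 (SE) were not called (limma, adjusted p = 0.571 and 0.107). Without EncT replicate 2, its lowest EncT array, the Treg change was -0.53 and was called (adjusted p = 0.00995).

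Of the kinases, Jak1, shared by receptors for interferons and for many interleukins, was the steadiest in the T cell groups. It was at 10.72, 10.74 and 10.67 in EncT, 10.64, 10.74 and 10.67 in nFoxA1Treg, and 10.66, 10.64 and 10.70 in Treg. Its changes were -0.028 in nFoxA1Treg (95% interval -0.12 to 0.064) and -0.043 in Treg (-0.13 to 0.049), and neither was called. These intervals leave out a change as large as that of Stat3, but 1 of the other Jak1 probe sets, 1433803_at, was lower in both, by -0.30 and -0.21 (limma over every probe set, adjusted p = 0.00589 and 0.044).

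Jak2, used by receptors for interferon-gamma, interleukin-12 and the growth factor GM-CSF, was at 9.43, 9.44 and 9.48 in EncT, 9.28, 9.22 and 9.35 in nFoxA1Treg, and 9.33, 9.32 and 9.28 in Treg. All 3 EncT arrays were above the other 6. The change was -0.17 ± 0.045 (SE) in nFoxA1Treg and -0.14 ± 0.045 in Treg (limma, adjusted p = 0.0212 and 0.0491). The first call was lost without EncT replicate 3 (adjusted p = 0.0655), nFoxA1Treg replicate 1 (0.0644) or nFoxA1Treg replicate 2 (0.101), and the second was kept in 4 of 25 alternatives. The second Jak2 probe set, 1421065_at, was not called in either.

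Tyk2, the partner of Jak1 and Jak2 on receptors for type I interferon and interleukin-12, was at 8.55, 8.38 and 8.28 in EncT, 8.15, 8.01 and 8.30 in nFoxA1Treg, and 8.12, 8.26 and 8.21 in Treg. EncT overlapped with nFoxA1Treg and lay just above Treg. Its changes of -0.25 ± 0.089 and -0.20 ± 0.089 (SE) were not called (limma, adjusted p = 0.0678 and 0.144). The first was called without EncT replicate 3 (adjusted p = 0.0452) or nFoxA1Treg replicate 3 (0.0316).

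EncT did not overlap with nFoxA1Treg in 5 of the 9 genes, where 33.7% of all genes did not, and with Treg in 6 of the 9, where 33.3% did not. The count of 5 called in Treg fell to 2 without EncT replicate 1, to 3 without Treg replicate 1, to 1 without Treg replicate 2 and to 3 without Treg replicate 3. The count of 5 in the F test fell to 3 without EncT replicate 1, nFoxA1Treg replicate 1, nFoxA1Treg replicate 2, Treg replicate 1, Treg replicate 2 or any of the arrays labelled iFoxA1Treg. Beside these changes, 10 of 12 macrophage markers were above the filter level in EncT, 5 in nFoxA1Treg and 6 in Treg, with summed levels of 1951 to 3151, 1222 to 2245 and 1910 to 2276. Lyz2 was at 5.18 in EncT and below the filter level in nFoxA1Treg and Treg. Fcgr3, Cybb and Ccl6, at 4.40, 5.11 and 4.32 in EncT, were below it in both as well. Clec7a was at 6.46 in EncT, below that level in nFoxA1Treg and at 4.07 in Treg. Some other macrophage markers differed less, with Adgre1 at 5.07, 4.90 and 4.99 and Csf1r at 5.44, 5.07 and 5.23 in EncT, nFoxA1Treg and Treg. The part of these markers in the changes was not tested.

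The regulatory populations were not separated by these genes. In nFoxA1Treg against Treg, 0 of 9 were called in limma (every adjusted p was 1), 0 had an unadjusted p under 0.05, and 0.00793% of all genes were called. The lowest unadjusted p in this limma fit was 0.0664, for Stat3, with a log2 change of -0.11 (95% interval -0.23 to 0.0088). The next was 0.0729, for Stat5b, with a change of 0.093 (-0.010 to 0.20). These were the 2 genes whose arrays did not overlap, where 11.2% of all genes did not. A difference within these intervals is not excluded with 3 arrays a group.

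The profile over the 9 arrays of EncT, nFoxA1Treg and Treg that came nearest to Stat3 was that of Card6 (Pearson r = 0.974), then Tmem127 and Rnf11 (0.972 and 0.968). For Stat5b it was St6galnac6 (0.991), for Jak2 Rccd1 (0.980), for Stat6 Tmem127 (0.976) and for Stat2 Zc3hav1l (0.976). Tmem127 thus appeared among the nearest 3 of both Stat3 and Stat6. These r values are the highest of 12609 genes over 9 arrays that share a normalization, and they describe likeness only. No such r is given over all 12 arrays, since 3 of them stand apart.

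In the arrays labelled iFoxA1Treg the same genes moved further and in both directions. Stat2 and Jak1 were higher than all 3 other groups, Stat5a and Tyk2 were lower than all 3, and the other 5 were called in 1 or 2 of the 3 comparisons. An F test over all 4 groups called 9 of 9, where 77.4% of all genes were called. Against EncT, 2 of 9 were called higher and 6 lower, where 72.2% of all genes were called, 33.9% higher and 38.3% lower. Against Treg 3 were higher and 3 lower, of 73.6% called over all genes, 35.2% higher and 38.4% lower. Against nFoxA1Treg 4 were higher and 3 lower, of 74.4%, with 35.2% higher and 39.2% lower. On the values as deposited the last split was 2 higher and 5 lower, and with arrays centred on their medians the split against Treg was 4 higher and 2 lower. Groups did not overlap in 9 of 9 against EncT (73.4% of all genes), 8 of 9 against Treg (77.7%) and 9 of 9 against nFoxA1Treg (77.7%). These shares are near those of all genes, and the 3 comparisons share the arrays labelled iFoxA1Treg. The other cell type markers given above move with every one of these differences, and their part in them was not tested.

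**Figure D2:**
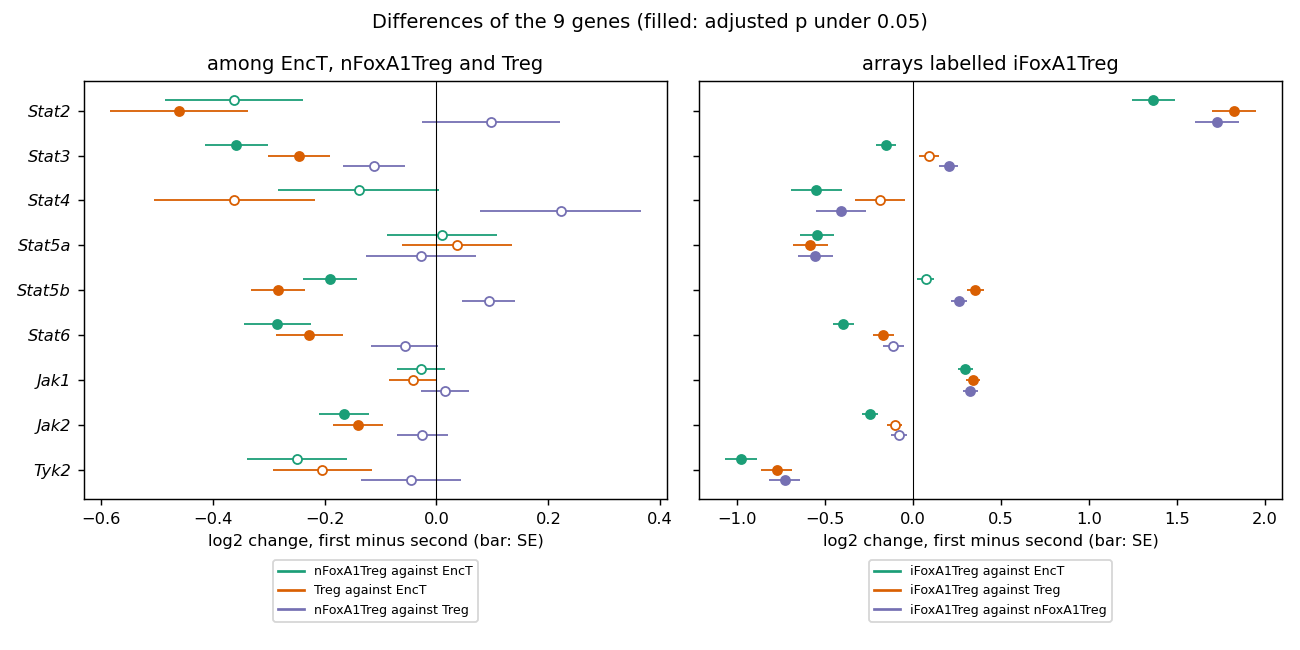
Log2 change of each of the 9 genes (points, with bars for the SE) in the comparisons among EncT, nFoxA1Treg and Treg on the left and in those of the arrays labelled iFoxA1Treg on the right; filled points are called at an adjusted p under 0.05. The changes on the left lie between -0.46 and 0.22, and those on the right between -0.98 and 1.83.

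On the brightest probe sets, the largest rise in the arrays labelled iFoxA1Treg was that of Stat2. The arrays labelled iFoxA1Treg were at 7.39, 7.51 and 7.56, and the highest of the other 9 arrays was at 6.31. The change was 1.37 ± 0.12 (SE) against EncT, 2.58-fold (limma, adjusted p = 3.15e-07), 1.83 against Treg, 3.55-fold (1.45e-08), and 1.73 against nFoxA1Treg, 3.31-fold (2.56e-08). The second Stat2 probe set rose further, by 2.14, 2.62 and 2.65 in the same order. On it the 3 arrays were at 7.58, 7.75 and 7.84, where the others ran from 4.92 to 5.86.

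Jak1 was at 10.97, 11.00 and 11.06 in the arrays labelled iFoxA1Treg, above all 9 other arrays. It was higher by 0.30 ± 0.042 (SE) against EncT, 0.34 against Treg and 0.33 against nFoxA1Treg. Of its other probe sets, 1433804_at rose by 1.26, 1.16 and 1.28, while 1433803_at changed by -0.045 against EncT and was not called there. The direction held where both were called, but the size of the Jak1 change depended on the probe set.

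On the brightest probe sets, the largest fall was that of Tyk2. It was at 7.39, 7.36 and 7.54 in the arrays labelled iFoxA1Treg, and the lowest of the other 9 was at 8.01. The change was -0.98 ± 0.089 (SE) against EncT, 1.97-fold lower (limma, adjusted p = 3.46e-07), -0.77 against Treg (3.43e-06) and -0.73 against nFoxA1Treg (6.17e-06). So of the 2 kinases of the type I interferon receptor, the Jak1 transcript was higher and the Tyk2 transcript lower. The second Tyk2 probe set, 1432576_at, lay near the filter level with a mean of 4.29 and was not called in any comparison.

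Stat5a was at 7.14, 7.15 and 7.20 in the arrays labelled iFoxA1Treg, below the other 9. It was lower by -0.55, -0.58 and -0.55 against EncT, Treg and nFoxA1Treg (each ± 0.098, SE; limma, adjusted p = 2.20e-04, 1.18e-04 and 1.79e-04). Its second probe set, 1450259_a_at, was lower by -1.38, -1.50 and -1.54. Stat5b went the other way on its brightest probe set, at 9.14, 9.05 and 9.04. It was higher by 0.36 against Treg and 0.26 against nFoxA1Treg (limma, adjusted p = 1.48e-05 and 2.27e-04), and its change of 0.072 against EncT was not called. Its second probe set, 1422102_a_at, was lower by -0.91, -0.91 and -0.96 in the 3 comparisons. The direction of Stat5b against Treg and nFoxA1Treg thus turned with the probe set, and that of Stat5a did not.

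Stat6 was at 8.65, 8.63 and 8.61 in the arrays labelled iFoxA1Treg, the lowest of the 4 groups. It was lower by -0.40 ± 0.060 (SE) against EncT (limma, adjusted p = 4.77e-05) and by -0.17 against Treg (0.0217), and its change of -0.11 against nFoxA1Treg was not called (0.108). The Treg call was lost without Treg replicate 1 (adjusted p = 0.0898), iFoxA1Treg replicate 2 (0.0512) or iFoxA1Treg replicate 3 (0.0607). The second Stat6 probe set, 1421708_a_at, was lower in all 3 comparisons, by -0.75, -0.57 and -0.58. Stat4 was at 8.77, 8.76 and 8.71, lower by -0.55 ± 0.14 (SE) against EncT (limma, adjusted p = 0.00375) and by -0.41 against nFoxA1Treg (0.0200). The last call was lost without nFoxA1Treg replicate 1 (0.0734), nFoxA1Treg replicate 2 (0.080) or iFoxA1Treg replicate 3 (0.0524).

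Stat3 on its brightest probe set was at 9.93, 9.98 and 10.06 in the arrays labelled iFoxA1Treg, between EncT and nFoxA1Treg. It was higher than nFoxA1Treg by 0.20 ± 0.056 (SE; limma, adjusted p = 0.00504), lower than EncT by -0.15 (0.0239), and not called against Treg. On 1460700_at it was higher than Treg by 0.29 and than nFoxA1Treg by 0.35 (limma over every probe set, adjusted p = 4.20e-04 and 9.89e-05), and its change of 0.054 against EncT was not called (0.417). The EncT call of the brightest probe set was lost without EncT replicate 1 (adjusted p = 0.0629), EncT replicate 2 (0.0562), iFoxA1Treg replicate 1 (0.0912) or iFoxA1Treg replicate 2 (0.060). On 1459961_a_at Stat3 was at 7.44, 7.12 and 7.44, near EncT and below both regulatory groups, by -1.19 against Treg and -1.07 against nFoxA1Treg. Jak2 was at 9.21, 9.19 and 9.22, lower by -0.24 ± 0.045 (SE) against EncT (limma, adjusted p = 2.59e-04) and not called against Treg (0.0506) or nFoxA1Treg (0.126). Its second probe set, 1421065_at, was lower in all 3 comparisons, by -0.22, -0.21 and -0.22 (limma over every probe set, adjusted p = 0.0119, 0.0147 and 0.0106). The change of the brightest Jak2 probe set against Treg was called without EncT replicate 1 (0.0424) or nFoxA1Treg replicate 3 (0.0384), and that of Stat3 against Treg without Treg replicate 1 (0.0256).

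**Figure D3:**
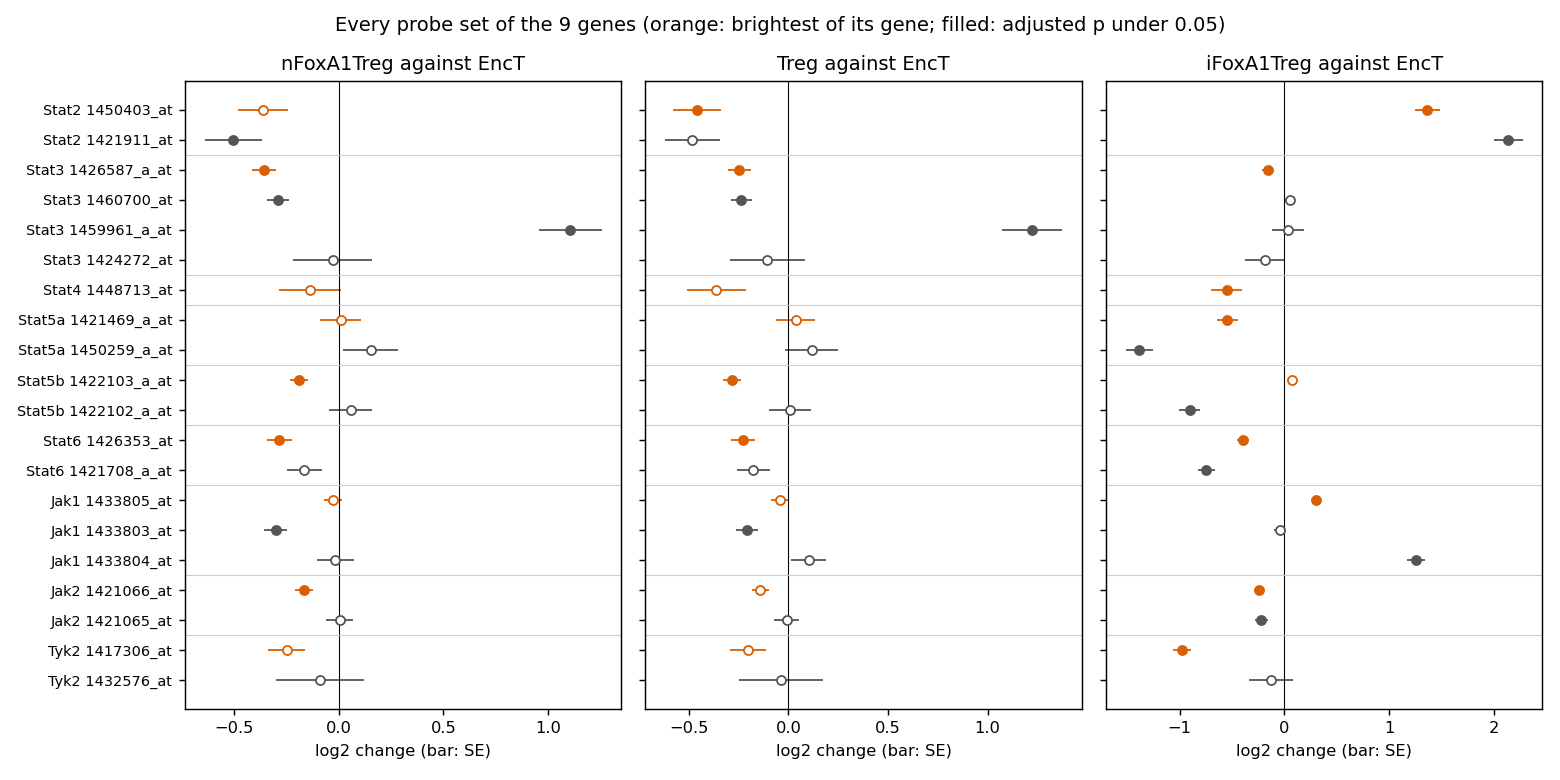
Log2 change of every one of the 20 probe sets, grouped by gene, in nFoxA1Treg against EncT, Treg against EncT and iFoxA1Treg against EncT; filled points are called in the fit over every probe set. The Stat3 probe set at 1.11 and 1.22 stands on the other side of 0 from the brightest Stat3 probe set, at -0.36 and -0.25.

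Over the 20 probe sets, 1 was called higher and 7 lower in nFoxA1Treg against EncT (8.67% of all probe sets were called), and 1 higher and 6 lower in Treg against EncT (6.86%). Stat3 was the 1 gene called both ways in each. The first total of 8 fell to 5 without EncT replicate 1 or nFoxA1Treg replicate 2. The second, of 7, fell to 3 without EncT replicate 1, to 4 without Treg replicate 1, to 2 without Treg replicate 2 or 3, and to 4 without any one of the arrays labelled iFoxA1Treg. Against EncT, the arrays labelled iFoxA1Treg had 4 probe sets higher and 10 lower (49.5% of all called). Against Treg they had 7 higher and 8 lower (50.7%), and against nFoxA1Treg 8 higher and 8 lower (51.0%; 5 and 10 on the values as deposited), with Stat3 and Stat5b called both ways in each of the last 2. In nFoxA1Treg against Treg, 0 of the 20 were called, where 0.0178% of all probe sets were.

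The other genes of the pathway were read from lists of cytokine receptors, of feedback and regulator genes and of targets known for each STAT. A gene can stand on more than 1 of them. The target lists do not separate genes that a STAT induces from genes that it represses. Over 17 receptor genes tested, the median log2 change in nFoxA1Treg against EncT was -0.20, against -0.0045 over all genes. Of the 17, 7 were lower and 0 higher, where 11.2% of all genes were lower. Without 3 receptor genes below the filter level in a group compared (Ifngr2, Il6ra and Csf2rb), which passed the filter through the arrays labelled iFoxA1Treg, it was 5 of 14. They included Il7r, the interleukin-7 receptor, at -0.80 ± 0.079 (SE) and Il10rb at -0.33 ± 0.063 (limma, adjusted p = 5.77e-05 and 0.00395). Csf2rb, the shared beta chain of the GM-CSF receptor, was also called lower but was below the filter level in nFoxA1Treg, so no size is given. In Treg against EncT 5 were lower and 0 higher, with a median of -0.13, where 10.3% of all genes were lower and their median was -0.0038, among them Ifngr1 at -0.38, Il10ra at -0.78 and Il7r at -0.40. The Treg count was 3 without Treg replicate 2 or 3.

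Of 21 feedback and regulator genes, 8 were lower and 0 higher in nFoxA1Treg against EncT, with a median of -0.086. In Treg against EncT 6 were lower and 0 higher, with a median of -0.040. Without Sh2b3 and Usp18, below the filter level in a group compared, these were 7 and 6 of 19. The shares of all genes lower are again 11.2% and 10.3%. Socs1, an inhibitor of Janus kinases, fell by 1.15 ± 0.15 (SE) in nFoxA1Treg and by 0.98 ± 0.15 in Treg (limma, adjusted p = 3.39e-04 and 0.00122). Socs5 was lower by -0.93 and -0.79, and the phosphatase gene Ptpn6 by -0.52 and -0.45. The first count was 5 without nFoxA1Treg replicate 1, 2 or 3.

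**Figure D4:**
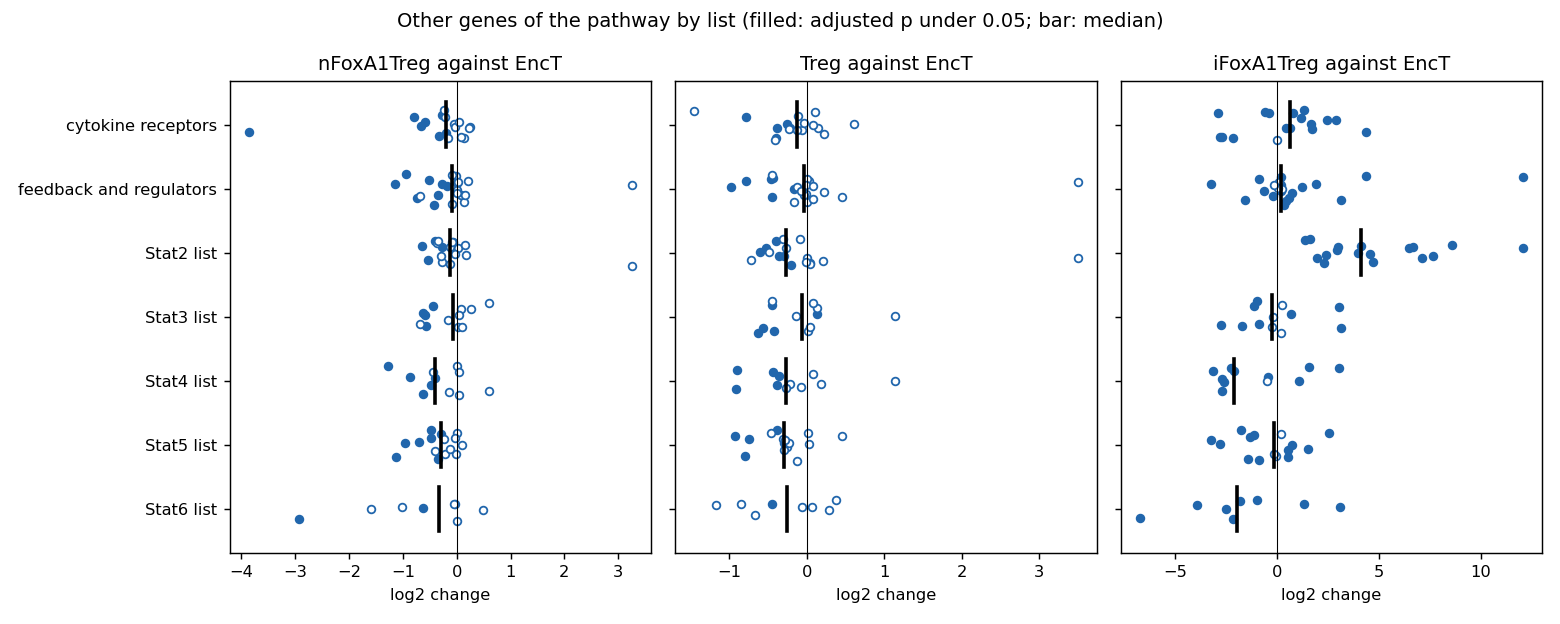
Log2 change of each tested gene (1 point per gene, with a bar at the list's median) of the receptor, feedback and STAT target lists, in nFoxA1Treg, Treg and the arrays labelled iFoxA1Treg against EncT; filled points are called at an adjusted p under 0.05. In the arrays labelled iFoxA1Treg the 17 tested genes of the Stat2 list lie above 0, 3 of them (Ifit1, Ifit3 and Usp18) below the filter level in EncT.

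Counts for the target lists are to be read against 11.2% of all genes lower in nFoxA1Treg and 10.3% in Treg. In nFoxA1Treg, 4 of 17 Stat2 targets, 4 of 12 Stat3 targets, 5 of 11 Stat4 targets, 7 of 15 Stat5 targets and 2 of 8 Stat6 targets were lower, and 0 were higher in any of these lists. Their medians were -0.12, -0.067, -0.40, -0.29 and -0.34. In Treg, 6, 4, 5, 5 and 1 genes of the same lists were lower and 1, of the Stat3 list, was higher, with medians of -0.27, -0.064, -0.27, -0.29 and -0.26. The 1 of 8 Stat6 targets in Treg (12.5%) is near the share of all genes. Ifit1, Ifit3, Rsad2 and Usp18 of the Stat2 list and Fcer2a of the Stat6 list were below the filter level in EncT, nFoxA1Treg or Treg, and none of these was among the genes called. Without Treg replicate 2 or 3 the Stat2 count was 3, and without Treg replicate 3 the Stat3 total of 5 was 2 and the Stat6 count was 0. Without Treg replicate 1, 2 or 3 the Stat4 count was 3. Without nFoxA1Treg replicate 3 the Stat5 count in Treg was 8 and the Stat6 count was 2, and without iFoxA1Treg replicate 2 the Stat6 count in nFoxA1Treg was 4.

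Changes of named targets against EncT are given for nFoxA1Treg first and Treg second, and both rest on the same EncT arrays. Irf9, the DNA-binding partner of Stat2, was lower by -0.65 ± 0.12 (SE) in nFoxA1Treg and by -0.61 ± 0.12 in Treg (limma, adjusted p = 0.00263 and 0.00496). Prdm1, which encodes Blimp-1 and was put on the Stat3 list, was lower by -0.57 and -0.63. Tbx21, the type 1 helper cell factor T-bet on the Stat4 list, was lower by -0.40 and -0.36. Of the Stat5 list, Pim2, a survival kinase, was lower by -0.97 and -0.93, Bcl6, a repressor, by -0.70 and -0.75, and the cytokine Osm by -1.12 and -0.80. Ccl22, a chemokine on the Stat6 list, was lower by -2.93 in nFoxA1Treg (limma, adjusted p = 0.00154) and had a change of -0.85 in Treg that was not called (0.269). In nFoxA1Treg against EncT, where 11.2% of all genes were lower, some markers of other cells were lower as well. Of those above the filter level in both groups, these were 1 of 4 dendritic cell markers (Cd74) and 2 of 5 macrophage markers. H2-Aa and H2-Eb1 were also called lower but were below that level in nFoxA1Treg. The same held for the macrophage markers Lyz2, Fcgr3, Clec7a, Cybb and Ccl6. In Treg, where 10.3% of all genes were lower, 2 of 6 dendritic cell and 2 of 6 macrophage markers above that level were lower. Lyz2 and Fcgr3 were also called lower in Treg but were below that level there. The part of these markers in the changes of the pathway genes was not tested. In nFoxA1Treg against Treg 0 genes of these lists were called in limma. Without nFoxA1Treg replicate 3, 1 receptor and 1 Stat6 target were called lower.

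The lists parted in the arrays labelled iFoxA1Treg. Ifit1, Ifit3 and Usp18 of the Stat2 list were below the filter level on average over the other 9 arrays and were tested only because they were high in this group, so they are not counted. Of the Stat2 targets above the filter level in both groups, 14 of 14 were higher against EncT, 13 of 13 against Treg and 14 of 14 against nFoxA1Treg, with medians of 3.45, 2.95 and 3.50, where 33.9%, 35.2% and 35.2% of all genes were higher. Ifit2 was higher by 4.11 ± 0.059 (SE) against EncT, Irf7 by 4.71 ± 0.097 and Bst2 by 2.95 ± 0.057 (limma, adjusted p = 4.88e-15, 1.51e-13 and 8.24e-14), all 3 being interferon-induced antiviral genes. Of the 15 genes of this list with a promoter window, 8 (53.3%) had the interferon element core, against 3.99% of all genes. Bst2 and Ifit1 shown above were among them, and Ifit2 and Irf7 were not. The 8 also include Isg15, which was not tested, and Ifit3, which was not counted above, as Ifit1 was not. The list was made of known Stat2 targets, so this share is a description of the list only. Of Stat4 targets 7 of 11 were lower and 3 higher against EncT, with a median of -2.10, and of the 5 Stat6 targets above the filter level in both groups 4 were lower and 1 higher, where 38.3% of all genes were lower. Tbx21 was lower by -2.26, Ifng, the type 1 helper cytokine, by -2.63 and Gata3, the type 2 helper cell factor, by -2.52. Ccr8, a chemokine receptor gene, was at 7.70 in EncT and below the filter level in the arrays labelled iFoxA1Treg.

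Stat3 and Stat5 targets went both ways there, with 3 and 5 higher and 5 and 7 lower against EncT, and medians of -0.24 and -0.14. Of all genes 33.9% were higher and 38.3% lower, which is near these shares. Socs2, an inhibitor of cytokine signalling on the Stat5 list, was lower by -3.27, and Bcl6, on the same list, was higher by 2.53. No expected direction was set for the genes of this list, so these signs are not read as Stat5 activity. Of the 15 receptor genes above the filter level in both groups 8 were higher and 6 lower, with Ifnar2, a chain of the type I interferon receptor, higher by 1.66 ± 0.066 (SE) and the interleukin-2 receptor chain Il2rb and the interleukin-12 receptor chain Il12rb1 lower by -2.69 and -2.90. Of the 19 such feedback genes 10 were higher and 5 lower, Pias3 by -1.57. Over all 21 the split was 12 and 5, and 9 and 6 on the values as deposited. Beside them, 11 of 11 T cell markers were lower against EncT, Cd3g by -2.40 and Zap70 by -2.91, and their part in these changes was not tested.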

How the data were processed

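RNA of 12 samples in 4 groups of 3, grouped by their labels, was read on Affymetrix Mouse430_2 arrays; per the labels' protocols it was extracted with Trizol, treated with DNase and amplified as biotin-labelled cRNA from the 3' end. The values are log2 per probe set as the authors deposited them. The submitters' processing notes name PLIER, with version and settings not given in the sources used here. The log base was read from the range of the values, and 3.85% to 5.65% of values per array were below 0. Because array medians spanned 0.202, above a tolerance of 0.2, quantile normalization was applied.

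Genes were taken from probe sets with 1 symbol and a mean of 4.05 or more (the upper 60%), keeping the brightest. limma 3.58.1 in R 4.3.3 fitted group means to the 12 arrays together (8 residual degrees of freedom; eBayes with an intensity trend; Benjamini-Hochberg adjustment within each comparison). A second fit took every probe set. The scripts were tested on simulated data. Number of arrays, 3 a group, limits precision; a fold is on the log2 scale without offset.

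Replicate numbers were not used to pair the samples: residuals of same-numbered arrays correlated at -0.163 to 0.166, with 2 of 18 pairs over 0.1. For replicates 1, 2 and 3 of Treg with EncT they were 0.166, 0.130 and 0.090, and this check cannot exclude a pairing. All members are named, and of each list up to 3 genes with the smallest adjusted p; Ifit1 was chosen for its promoter after its values were seen. Members and lists were chosen with earlier results of these data known. Alternatives changed the scaling, offset, filter, choice of probe set, model, samples and pairing, and left out each array.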

Additional observations from a re-analysis of the deposited data

How the results depend on the processing

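Of the changes of single members under the alternatives, 1180 kept direction and side of the threshold, 33 changed sign without being called in either setting, 62 lost a call, 30 gained one and 18 reversed. All 18 came from another choice of probe set. With the probe set of largest variance, Stat3 changed by 1.11 in nFoxA1Treg and 1.22 in Treg against EncT, and in iFoxA1Treg by 0.035, -1.19 and -1.07 against EncT, Treg and nFoxA1Treg; Stat5b by 0.056, 0.0080, -0.91, -0.91 and -0.96 in the same order, and Jak2 by 0.0035 in nFoxA1Treg against EncT. With the mean of the probe sets, Stat3 changed by 0.11 and 0.16 in nFoxA1Treg and Treg against EncT and by -0.22 and -0.17 in iFoxA1Treg against Treg and nFoxA1Treg, and Stat5b by -0.42, -0.28 and -0.35 in iFoxA1Treg against EncT, Treg and nFoxA1Treg.

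The 4 members called in nFoxA1Treg against EncT became 2 with arrays centred on their medians, with the largest variance, with the mean or with only the groups compared. The 5 in Treg against EncT became 2 with the largest variance or only the groups compared, and 1 with the mean. The 5 of the F test became 2 with the largest variance or the mean, and 3 without an intensity trend, without the arrays labelled iFoxA1Treg or with the replicate block. Leaving out 1 array gave 3 to 5, 1 to 5 and 3 to 4 for these, 7 to 8, 5 to 7 and 6 to 7 for iFoxA1Treg against EncT, Treg and nFoxA1Treg, and 0 for nFoxA1Treg against Treg. Member probe sets called, 8 in nFoxA1Treg and 7 in Treg against EncT, became 4 and 2 without a trend or with only the groups compared, and the 7 became 4 without the arrays labelled iFoxA1Treg; leaving out 1 array gave 5 to 8 and 2 to 6. The cause was not tested. The alternatives for probe sets and lists were chosen after seeing the data.

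With the replicate number as a block, the Jak2 call in Treg against EncT was lost (adjusted p = 0.0678 in limma). No other member call between a pair of groups changed, but the count of the F test fell as given above. On the values as deposited the median of all genes moved by -0.16, -0.13 and -0.15 in iFoxA1Treg against EncT, Treg and nFoxA1Treg, and the calls of Stat3 and Stat5b against nFoxA1Treg were lost (adjusted p = 0.0909 and 0.0551) while those of Stat6 (-0.26, adjusted p = 0.00259) and Jak2 (-0.21, 0.00107) were gained. With 3 arrays a group, a change within the intervals given is not excluded where no call was made, and dim probe sets limit Stat2 and the second Tyk2 probe set.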
